A study of Mus musculus with 12 samples.

Results

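The 9 genes described here encode the receptors for the colony-stimulating factors (Csf1r, Csf2ra, Csf2rb, Csf2rb2 and Csf3r) and 4 transcription factors of the myeloid lineage (Spi1, Cebpa, Cebpb and Irf8). They were taken by name, 9 of the 32688 genes in the count table, and all 9 passed the filter on low counts. RNA-seq counts came from RAW264.7, an established macrophage line of the mouse. The design crossed genotype (Null cells, WT in the study's wording, and TFEB/TFE3 double knockout or DKO cells, made by CRISPR) with treatment (control, or 100 µM etoposide for 8 h), and each of the 4 combinations had 3 libraries. Both lines were grown in the same high-glucose medium with serum. Etoposide is a topoisomerase II poison that leaves breaks in DNA. Controls are untreated according to the labels and DMSO-treated according to the methods. Neither source separates clones within Null or DKO cells, so a difference between the lines cannot be told apart from a difference between 2 clones. The labels do not say that the replicates were separate cultures, and p-values measure only the spread between these samples.

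Colony-stimulating factors are secreted proteins that keep myeloid cells alive and direct their maturation. CSF1R is a receptor tyrosine kinase for CSF1 and IL-34, and macrophages depend on it. GM-CSF (CSF2) binds the alpha chain CSF2RA together with the shared beta chain CSF2RB, which also serves IL-3 and IL-5. The mouse carries a second beta chain gene, Csf2rb2, whose product serves IL-3. CSF3R is the receptor for G-CSF (CSF3) and is best known from neutrophils. Spi1 encodes PU.1, an ETS family factor required for macrophages. Cebpa and Cebpb encode C/EBP factors of granulocyte and macrophage genes. Irf8 encodes an interferon regulatory factor that favours monocytes and dendritic cells over neutrophils.

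Sequences of 4 of these genes, Csf2rb, Csf2rb2, Csf3r and Irf8, are shown first. Csf2rb and Csf2rb2 are near copies, which bears on how reads were shared between them. Over the longest coding transcripts of GENCODE M21, 95.2% of 2631 aligned coding bases were identical, and the longest identical run in the alignment of the transcripts was 242 bases. Of all windows of 75 bases, the read length of the study, 10.7% in Csf2rb and 11.1% in Csf2rb2 were present in the other gene. A read within such a window maps to both genes, and by the study's methods only uniquely mapped pairs were counted. A pair may still be placed by its other read, so these shares do not give the share of reads lost. The stretch of 100 coding bases with the most mismatches, 17, is printed below with each mismatch in capitals. It spans bases 314 to 413 of the Csf2rb reading frame and bases 317 to 416 of the Csf2rb2 reading frame.
Csf2rb: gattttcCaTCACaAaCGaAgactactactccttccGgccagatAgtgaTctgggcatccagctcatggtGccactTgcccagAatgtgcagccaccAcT
Csf2rb2: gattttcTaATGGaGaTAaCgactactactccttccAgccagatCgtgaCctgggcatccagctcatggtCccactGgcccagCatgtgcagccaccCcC

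The bases before the start of Csf2rb2, Csf3r and Irf8 are given as context for 3 of the genes that differed between the lines. Cebpa also differed in both states and its window is not printed. These bases, from the RefSeq promoter table (GRCm38.p6), were searched on both strands for 4 motifs. These were CACGTG (the E-box core that TFEB and TFE3 bind), GAGGAA (a core bound by PU.1), TTCNNNGAA (the GAS element of STAT factors) and TTGCNNAA (a relaxed form of the C/EBP site). Windows of 250 bases held these motifs in 6.02%, 23.2%, 7.02% and 9.56% of 32851 promoters, respectively. None of the 4 overlapped another in the sequences below, where a match is in capitals. Promoters matched by symbol for 6 of the 9 genes were used. Irf8 held 2 GAS matches, at 171 and 153 bases before the start. Csf2rb2 held 1 GAS match at 15 bases and 1 GAGGAA match, read on the other strand, at 167 bases. The Csf3r window was ended at the first exon base of GENCODE and held none of the 4, and neither did the windows of Csf2ra, Cebpa and Cebpb or that of the second Irf8 start. A match is a description of the letters only.
Irf8, chr8:120736108-120736357, plus strand: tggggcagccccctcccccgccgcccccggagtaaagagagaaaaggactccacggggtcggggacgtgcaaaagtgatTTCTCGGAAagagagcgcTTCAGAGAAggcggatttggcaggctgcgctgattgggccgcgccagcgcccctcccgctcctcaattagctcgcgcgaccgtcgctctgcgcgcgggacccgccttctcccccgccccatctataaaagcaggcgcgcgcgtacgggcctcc
Csf2rb2, chr15:78305722-78305971, minus strand: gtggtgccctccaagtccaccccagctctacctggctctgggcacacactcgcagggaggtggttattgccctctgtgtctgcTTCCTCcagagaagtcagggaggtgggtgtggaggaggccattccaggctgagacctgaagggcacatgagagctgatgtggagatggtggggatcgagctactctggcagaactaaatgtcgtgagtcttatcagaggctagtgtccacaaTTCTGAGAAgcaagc
Csf3r, chr4:126024409-126024549, plus strand: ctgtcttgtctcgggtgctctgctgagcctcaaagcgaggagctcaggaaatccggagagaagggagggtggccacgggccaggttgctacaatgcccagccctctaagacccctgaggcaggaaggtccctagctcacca

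The libraries held 29837255 to 61809316 counts each, and mitochondrial genes took 19.4% to 21.7% of them in the 3 Null etoposide libraries and 14.1% to 18.3% in the other 9. The part of this difference in the results was not tested. The targeted genes were lower in DKO cells in the same libraries. Tfeb averaged 16.8 CPM (the gene's counts relative to the TMM-scaled library size) in Null control cells against 4.40 CPM in the DKO controls, and 7.56 against 4.34 CPM after etoposide. Tfe3 averaged 104 and 37.8 CPM in control cells and 101 and 37.7 CPM after etoposide. Titles of the DKO etoposide libraries name both RAW264.7 and MEFs (embryonic fibroblasts) and leave out the word DKO, while the source and genotype labels of these libraries give RAW264.7 and the DKO. They were kept as DKO etoposide libraries. All 10 macrophage markers averaged over 1 CPM in every group, with summed levels from 4409 to 6273 CPM over the libraries. Csf1r and Spi1, themselves among the 9 genes, are 2 of these markers, and Csf1r is the most abundant of them in control cells, so that the sum is no check independent of the results. The 9 fibroblast markers summed to at most 2.04 CPM in any library, and to 1.03 to 1.20 CPM in the libraries with MEFs in the title. Markers of neutrophils (8 genes, at most 0.691 CPM summed), progenitors (6 genes, at most 1.04 CPM), dendritic cells (6 genes, at most 6.71 CPM) and B lymphocytes (6 genes, at most 3.73 CPM) were low. Ly6g, which defines neutrophils, was listed at 0 in 3 of the 4 groups.

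Csf1r, the CSF1 receptor, fell after etoposide in both lines, and it fell less in DKO cells. The gene (ENSMUSG00000024621.15) lies at chr18:61100598-61132149 on the plus strand (mm10, coordinates of GENCODE M21). Its levels in the 3 Null control libraries were 1623, 1782 and 1849 CPM. In DKO control cells they were 1432, 1264 and 1183 CPM, so that every DKO control library was below every Null control library. After etoposide they were 749, 799.5 and 745 CPM in Null cells. The DKO libraries after etoposide held 865, 871 and 813 CPM, slightly above the Null range. In a bulk measurement fewer cells of a type and less RNA per cell cannot be told apart. The log2 difference between etoposide and control was -1.19 ± 0.086 (SE) in Null cells, a 2.29-fold lower level (limma-trend, Benjamini-Hochberg adjusted p = 4.34e-07). In DKO cells it was -0.60 (adjusted p = 1.30e-04), a 1.52-fold lower level. The interaction, which is the DKO response minus the Null response, was 0.59 (95% interval 0.33 to 0.86, adjusted p = 0.00800). Between the lines the log2 difference was -0.44 in control cells (adjusted p = 0.00269). After etoposide it was 0.15 and did not pass the test (adjusted p = 0.203, interval -0.04 to 0.34), although the ranges did not overlap. Hmgxb3, on the opposite strand, shares 873 exon bases with Csf1r, and its reads could account for at most 0.776% of Csf1r counts in any library.

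Csf3r, the G-CSF receptor, showed the largest difference between the lines among the 9 genes and was nearly absent from DKO libraries. The gene (ENSMUSG00000028859.14, chr4:126024550-126044440, plus strand) gave 50.3, 46.1 and 39.3 CPM in Null control cells. In DKO control cells it gave 0.582, 0.521 and 1.01 CPM, from 29 to 33 counts a library. After etoposide it gave 52.7, 50.4 and 52.7 CPM in Null cells and 0.872, 0.630 and 1.00 CPM in DKO cells. Every Null library thus lay at 39.3 CPM or above and every DKO library at 1.01 CPM or below. The log2 difference between DKO and Null cells was -5.94 ± 0.216 in control cells, a 61.3-fold lower level (adjusted p = 1.69e-09). After etoposide it was -5.88, a 59.1-fold lower level (adjusted p = 8.22e-10). Etoposide itself gave no call in either line, with log2 differences of 0.21 in Null cells (interval -0.27 to 0.68, adjusted p = 0.493) and 0.26 in DKO cells (interval -0.21 to 0.73, adjusted p = 0.379). In Null cells the ranges did not overlap, with control libraries up to 50.3 CPM and etoposide libraries from 50.4 CPM. Single libraries moved both log2 differences. The DKO value was 0.53 (adjusted p = 0.0332) without DKO control replicate 3 and 0.096 without DKO control replicate 2, and the Null value was 0.11 without Null control replicate 3. The response did not differ between the lines beyond its error (interaction 0.06, interval -0.61 to 0.72, adjusted p = 0.957). Of 3407 windows of 75 bases in the longest coding transcript of Csf3r, 3.40% also occur in transcripts of other genes.

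**Figure D1:**
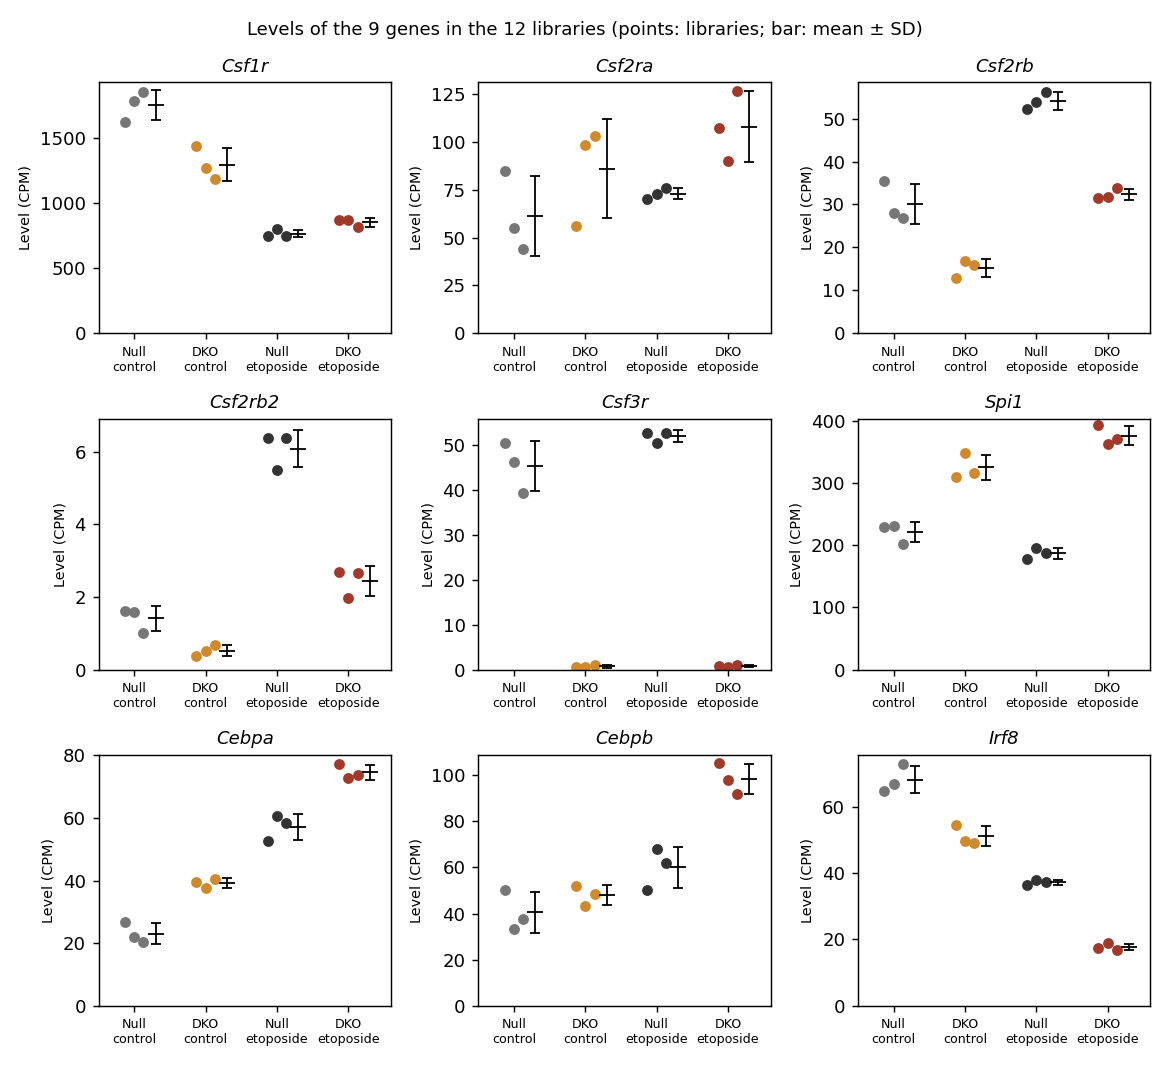
Level of each of the 9 genes in CPM (vertical axes start at 0, 1 scale per gene) in the 4 groups, with 1 point per library and the mean ± SD of 3 libraries beside them. Csf3r was at 1.01 CPM or below in all 6 DKO libraries, and Csf1r and Irf8 were lower after etoposide in both lines.

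The beta chain genes rose with etoposide in both lines and were lower in DKO cells in both states. Csf2rb (ENSMUSG00000071713.4, chr15:78325752-78353847, plus strand), the shared beta chain, gave 35.4, 28.1 and 26.9 CPM in Null control cells. The DKO control libraries gave 12.9, 16.9 and 15.9 CPM. After etoposide the Null libraries rose to 52.3, 53.8 and 56.3 CPM and the DKO libraries to 31.6, 31.7 and 33.8 CPM. The DKO libraries after etoposide therefore lay within the range of Null control libraries, while all other pairs of groups were apart. The etoposide response was a log2 difference of 0.85 in Null cells (adjusted p = 9.30e-05) and 1.09 in DKO cells (adjusted p = 1.07e-05). DKO cells were lower than Null cells by a log2 difference of -0.98 in control cells (adjusted p = 5.24e-05) and -0.74 after etoposide (adjusted p = 3.35e-04). The interaction of 0.24 (interval -0.12 to 0.60, adjusted p = 0.484) did not pass the test and was 0.12 without Null control replicate 1.

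Csf2rb2 (ENSMUSG00000071714.5, chr15:78282507-78305721, minus strand), the IL-3 beta chain, moved in the same directions. It gave 1.62, 1.60 and 1.01 CPM in Null control cells and 0.376, 0.503 and 0.671 CPM in DKO control cells. After etoposide it gave 6.37, 5.49 and 6.39 CPM in Null cells and 2.69, 1.98 and 2.65 CPM in DKO cells. The groups were separate in each of the 4 comparisons. The rise with etoposide was a log2 difference of 2.09 in Null cells (4.26-fold, adjusted p = 1.58e-05) and 2.14 in DKO cells (4.39-fold, adjusted p = 1.19e-05). DKO cells were lower by -1.35 in control cells (adjusted p = 9.57e-04) and by -1.31 after etoposide (adjusted p = 7.78e-04). The interaction was 0.04 (interval -0.67 to 0.75, adjusted p = 0.967). The precision of Csf2rb2 was limited by its counts, 20 to 79 in control libraries. A microRNA gene, Mir7676-1, lies within an exon of Csf2rb2 and could hold up to 46.4% of its counts in 1 library, and how the counting divided reads between them is not given in the sources used here.

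As a share of the reads of both beta chain genes, Csf2rb2 took 3.62% to 5.37% in Null control libraries and 2.82% to 4.06% in DKO control libraries. After etoposide the share was 9.26% to 10.9% in Null cells and 5.86% to 7.84% in DKO cells. The share was thus higher after etoposide in every library of a line than in any control library of that line. The exact (Clopper-Pearson) 95% intervals, which cover counting error only, ran from 9.85% to 11.9% in the highest library and from 1.73% to 4.33% in the lowest. Summing the 2 genes, a choice made after seeing the data, changed no call of Csf2rb.

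**Figure D2:**
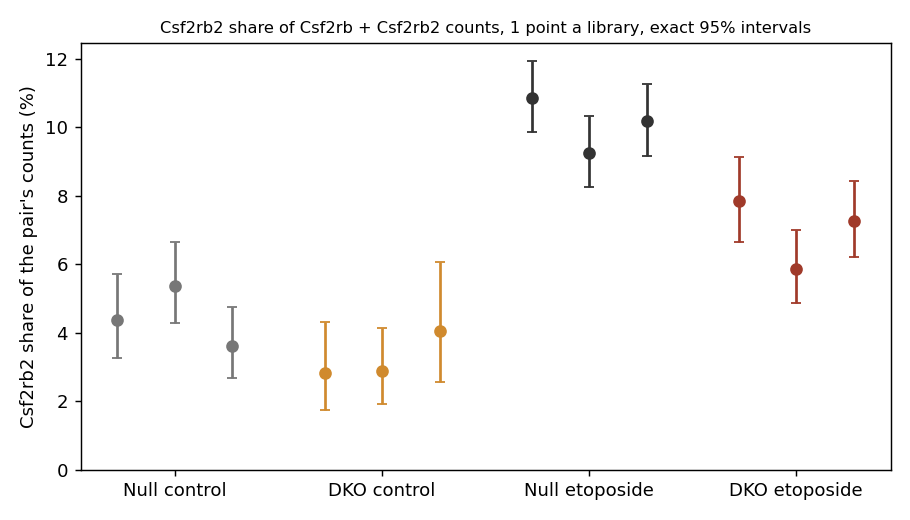
Share of Csf2rb2 in the summed counts of Csf2rb and Csf2rb2 (percent, vertical axis from 0), with 1 point per library and exact 95% intervals for counting error. The share was 2.82% to 5.37% in the 6 control libraries and 5.86% to 10.9% in the 6 etoposide libraries.

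Csf2ra, the GM-CSF alpha chain, passed the test in no comparison with limma, edgeR or DESeq2 on all libraries. The gene (ENSMUSG00000059326.6, chr19:61223957-61228429, minus strand) gave 84.7, 54.8 and 44.3 CPM in Null control cells and 56.2, 98.7 and 103 CPM in DKO control cells. In each control group replicate 1 stood apart from the other two, upward in Null and downward in DKO cells. After etoposide it gave 70.2, 72.9 and 75.8 CPM in Null cells and 107, 90.0 and 127 CPM in DKO cells, with no overlap. The latter difference was 0.55 on the log2 scale (interval 0.01 to 1.09, unadjusted p = 0.0466, adjusted p = 0.111). It passed with only those 2 groups in the fit (0.55, adjusted p = 0.00165) and without DKO control replicate 1 (0.56, adjusted p = 0.0438). In control cells the difference was 0.49 (adjusted p = 0.214). It passed without Null control replicate 1 (0.75, adjusted p = 0.0386) or without DKO control replicate 1 (0.76, adjusted p = 0.0267), and was 0.29 (adjusted p = 0.543) without Null control replicate 3. The etoposide responses were 0.31 in Null cells (adjusted p = 0.365) and 0.36 in DKO cells (adjusted p = 0.277), each with an interval that spans 0. With a library left out they ranged from 0.099 (without Null control replicate 3) to 0.56 (without Null control replicate 1) and from 0.090 (without DKO control replicate 1) to 0.52 (without DKO control replicate 3).

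Among the transcription factors, Spi1 was higher in DKO cells in both states. The gene (ENSMUSG00000002111.8, chr2:91082390-91115756, plus strand) gave 229, 231 and 202 CPM in Null control cells and 309.9, 348 and 316 CPM in DKO control cells. After etoposide it gave 178, 195 and 187 CPM in Null cells and 392, 363 and 371 CPM in DKO cells. The lines were apart in both states, and the gap widened after etoposide. The difference between DKO and Null cells was 0.56 in control cells (adjusted p = 2.01e-04) and 1.01 after etoposide (2.01-fold, adjusted p = 7.16e-07). Etoposide lowered Spi1 in Null cells by a small step, -0.24 (adjusted p = 0.0282), and raised it in DKO cells by 0.21 (adjusted p = 0.0499). The interaction was 0.45 (interval 0.21 to 0.69, adjusted p = 0.0221).

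These 3 smaller results on Spi1 were close to the threshold. The rise in DKO cells lost its call in 15 of the 22 alternatives run, among them edgeR (adjusted p = 0.0551) and each leave-out except those of Null control replicates 1 and 3 and DKO control replicate 2. The fall in Null cells lost its call without Null control replicate 1 (adjusted p = 0.0730) or replicate 2 (adjusted p = 0.107) and without Null etoposide replicate 1 (adjusted p = 0.0886) or replicate 3 (adjusted p = 0.0767). The interaction lost its call without Null control replicate 2 (adjusted p = 0.0705), Null etoposide replicate 1 (adjusted p = 0.0566) or replicate 3 (adjusted p = 0.0614), or DKO etoposide replicate 1 (adjusted p = 0.0524). The direction was kept in all of them.

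Cebpa rose with etoposide in both lines and was higher in DKO cells in both states. The gene (ENSMUSG00000034957.10, chr7:35119293-35121928, plus strand) is a single exon. It gave 26.8, 22.0 and 20.3 CPM in Null control cells and 39.6, 37.6 and 40.5 CPM in DKO control cells. After etoposide it gave 52.5, 60.6 and 58.5 CPM in Null cells and 77.3, 72.9 and 73.7 CPM in DKO cells. The 4 groups formed a ladder without overlap, from Null control to DKO control, Null etoposide and DKO etoposide. The etoposide response was 1.32 in Null cells (2.49-fold, adjusted p = 5.27e-07) and 0.93 in DKO cells (1.90-fold, adjusted p = 9.54e-06). DKO cells were higher by 0.78 in control cells (adjusted p = 8.38e-05) and by 0.39 after etoposide (adjusted p = 0.00875). The interaction of -0.39 (interval -0.69 to -0.09) did not pass after adjustment (adjusted p = 0.113), but it did without Null control replicate 1 (-0.50, adjusted p = 0.0131).

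Cebpb also rose with etoposide, and it ended highest in DKO cells. The gene (ENSMUSG00000056501.3, chr2:167688915-167690418, plus strand), again a single exon, gave 50.2, 33.5 and 37.7 CPM in Null control cells and 51.9, 43.4 and 48.6 CPM in DKO control cells. These 2 groups overlapped, and their difference of 0.26 did not pass the test (adjusted p = 0.265), except without Null control replicate 1 (0.43, adjusted p = 0.0326). Without Null control replicate 2 it was 0.14. After etoposide the Null libraries gave 50.4, 67.8 and 61.9 CPM and the DKO libraries 105, 97.9 and 92.1 CPM. All 3 DKO libraries lay above all 3 Null libraries. The difference was 0.72 (1.65-fold, adjusted p = 0.00205). The etoposide response was 0.58 in Null cells (adjusted p = 0.00706) and 1.04 in DKO cells (2.05-fold, adjusted p = 1.09e-04), with an interaction of 0.46 that did not pass after adjustment (adjusted p = 0.227) and was 0.29 without Null control replicate 1. Tmem189 on the opposite strand shares 312 exon bases with Cebpb, and its counts per base would put up to 18.2% of Cebpb counts in doubt in a library. Removing that estimate, a choice made after seeing the data, changed no call.

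Irf8 fell with etoposide in both lines, and it was lower in DKO cells in both states. The gene (ENSMUSG00000041515.9, chr8:120736358-120756694, plus strand) gave 64.8, 67.0 and 72.9 CPM in Null control cells and 54.6, 49.8 and 49.0 CPM in DKO control cells. After etoposide it gave 36.4, 38.0 and 37.4 CPM in Null cells and 17.6, 18.8 and 16.9 CPM in DKO cells. The 4 groups did not overlap, in the order opposite to that of Cebpa. The etoposide response was -0.87 in Null cells (1.83-fold lower, adjusted p = 1.91e-06) and -1.52 in DKO cells (2.87-fold lower, adjusted p = 8.04e-09). The interaction was -0.65 (interval -0.88 to -0.42, adjusted p = 0.00158), so Irf8 fell further in DKO cells. DKO cells were lower by -0.42 in control cells (adjusted p = 0.00145) and by -1.07 after etoposide (2.10-fold lower, adjusted p = 2.82e-07). Every alternative run kept the call of Irf8 in these comparisons, apart from a minimum log2 difference of 1.

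**Figure D3:**
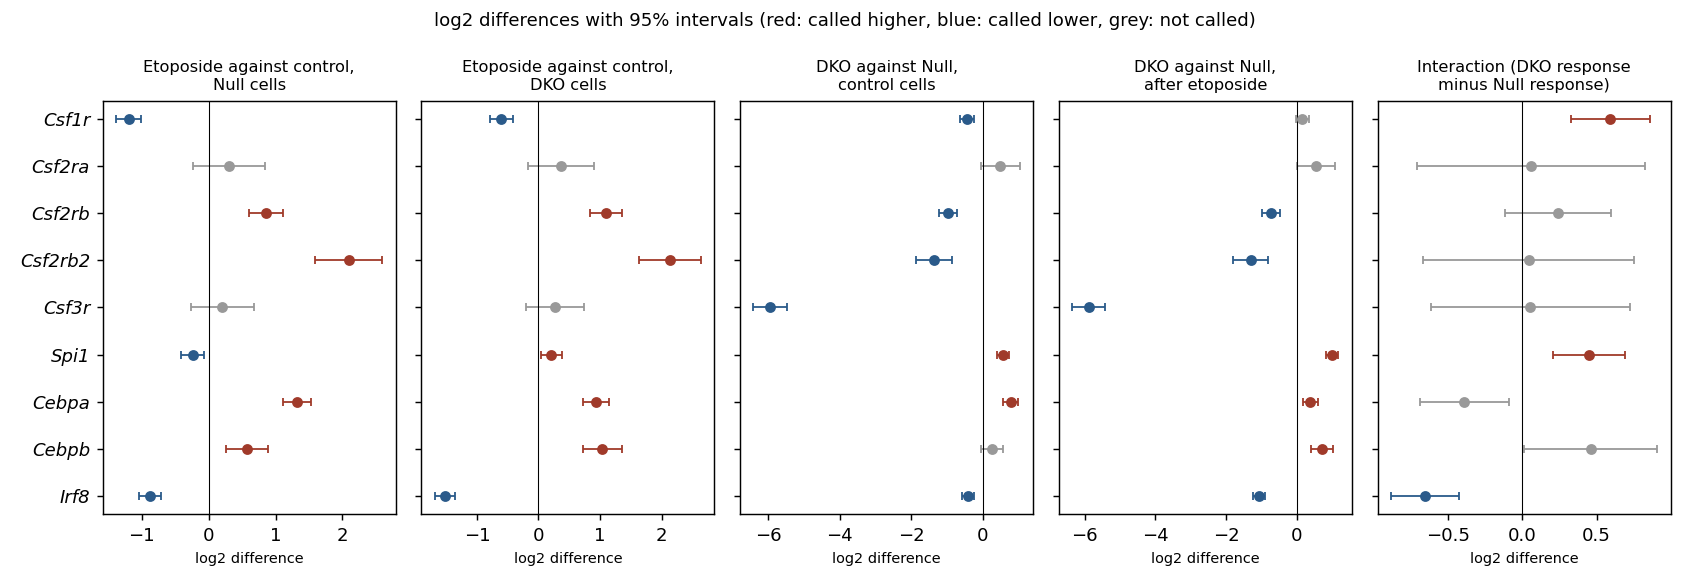
log2 differences of the 9 genes with 95% intervals in the 5 comparisons (horizontal axes, 1 scale each), red for genes called higher, blue for genes called lower and grey for genes not called at an adjusted p of 0.05. Csf3r stands at -5.94 and -5.88 between the lines, and the interaction passed for Csf1r, Spi1 and Irf8.

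Read against all genes tested, the 9 genes gave the following counts. After etoposide in Null cells, 4 of the 9 were called higher and 3 lower, where 20.9% of the 18066 genes tested were called higher and 18.7% lower. In DKO cells 5 were called higher and 2 lower, against 20.2% and 19.1% of all genes. Between the lines in control cells, 2 were called higher in DKO cells and 5 lower, against 10.9% and 8.39% of all genes. The 1974 higher and 1516 lower calls of all genes became 1579 and 2057 when libraries were scaled by their size alone, and no call of the 9 genes changed. After etoposide 3 were higher in DKO cells and 4 lower, against 15.9% and 17.8%. The interaction was positive for 2 and negative for 1, against 3.07% and 6.39%. The median absolute log2 difference of the 9 genes was 0.85 and 0.93 for the etoposide response in Null and DKO cells, against 0.36 and 0.35 over all genes tested. Between the lines it was 0.56 in control cells and 0.74 after etoposide, against 0.22 and 0.31.

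Levels can be compared between genes only per length, and RPKM (CPM per kilobase of merged exons) was used for this. In Null control cells Csf1r led at 303 ± 20.1 RPKM (SD, n = 3), followed by Spi1 at 81.9 ± 6.11. Cebpb at 26.9 and Csf2ra at 21.3 RPKM came next and overlapped each other. Csf3r stood at 12.5 RPKM, above Irf8 at 9.67 and Cebpa at 8.74, which overlapped. Csf2rb at 4.14 and Csf2rb2 at 0.297 RPKM closed the order. In DKO control cells Csf3r moved to the last place but one, at 0.195 RPKM, and Cebpa at 14.9 RPKM passed Irf8 at 7.25 RPKM. Csf1r remained first there at 224 RPKM and Spi1 second at 121 RPKM.

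After etoposide the gap between Csf1r and Spi1 narrowed. In Null cells they stood at 132 and 69.3 RPKM. In DKO cells they stood at 147 and 139 RPKM with overlapping libraries, and Spi1 led when the length of the longest coding transcript was used instead. Below them in DKO cells followed Cebpb at 65.4, Csf2ra at 37.6, Cebpa at 28.3, Csf2rb at 4.45, Irf8 at 2.52, Csf2rb2 at 0.514 and Csf3r at 0.231 RPKM, with no overlap between neighbours from Spi1 down. Ranks by the other length differed also for Cebpb and Csf2ra in both control groups, for Irf8 against Csf3r in Null control cells, for Irf8 against Cebpa in DKO control cells and for Irf8 against Csf2rb in Null cells after etoposide.

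**Figure D4:**
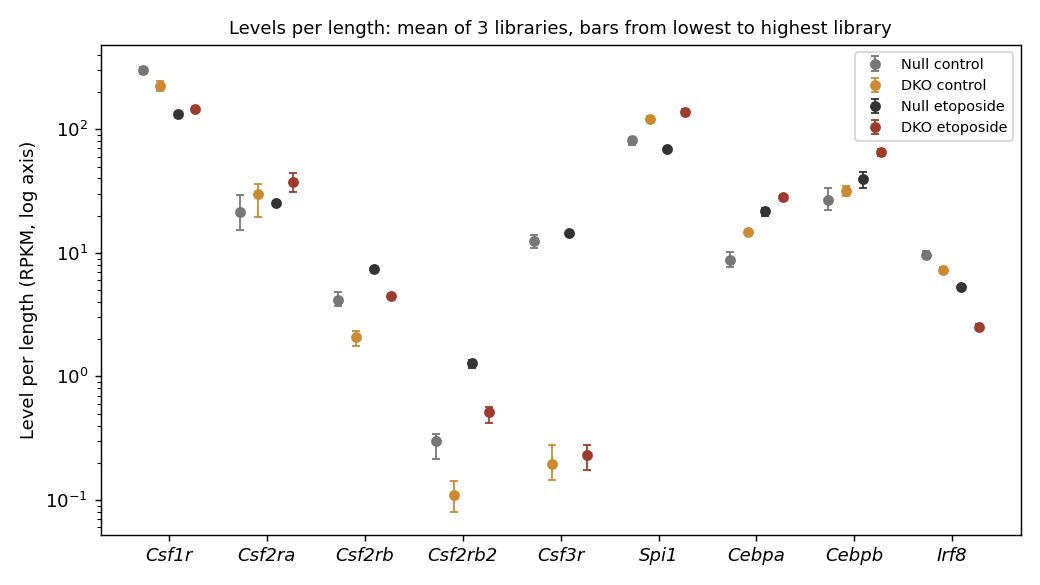
Level per length of the 9 genes (RPKM on a log axis) in the 4 groups, with the mean of 3 libraries as a point and bars from the lowest to the highest library. Csf1r and Spi1 were closest in DKO cells after etoposide, at 147 and 139 RPKM, and Csf3r in DKO cells was at 0.195 and 0.231 RPKM.

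The spread between replicates limited some genes more than others. On the log2 scale the SD between libraries of a group had a median over the 9 genes of 0.203 (Null) and 0.140 (DKO) among controls and of 0.0565 (Null) and 0.0798 (DKO) after etoposide. Csf2ra varied most in both control groups, with SDs of 0.476 and 0.489. Irf8 had the smallest SD of the 9 genes in both Null groups, 0.0874 and 0.0300, and Cebpa in both DKO groups, 0.0559 and 0.0448.

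Of 6 genes for ligands of these receptors, Csf1 and Csf3 passed the filter on counts, and they did so through the etoposide libraries, so no test of their etoposide response is given. Csf1 was covered by 8 to 19 counts in Null control libraries and 3 to 5 in DKO control libraries. After etoposide it reached 5.52 ± 0.726 CPM (SD, n = 3) in Null cells, against 1.13 ± 0.133 CPM in DKO cells. After etoposide DKO cells were lower by -2.22 on the log2 scale (adjusted p = 2.68e-05). Csf3, which encodes G-CSF, had 4 counts over the 3 control libraries of each line. After etoposide it averaged 1.64 CPM in Null cells against 3.02 CPM in DKO cells, where its receptor gene was at or under 1.00 CPM. DKO cells were higher than Null cells after etoposide by 0.85 (adjusted p = 0.0288). Il34, the other CSF1R ligand, was listed at 0 in all 6 control libraries and held 19 and 36 counts over the Null and DKO etoposide libraries. Csf2, Il3 and Il5 held at most 17 counts over any group.

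**Figure D5:**
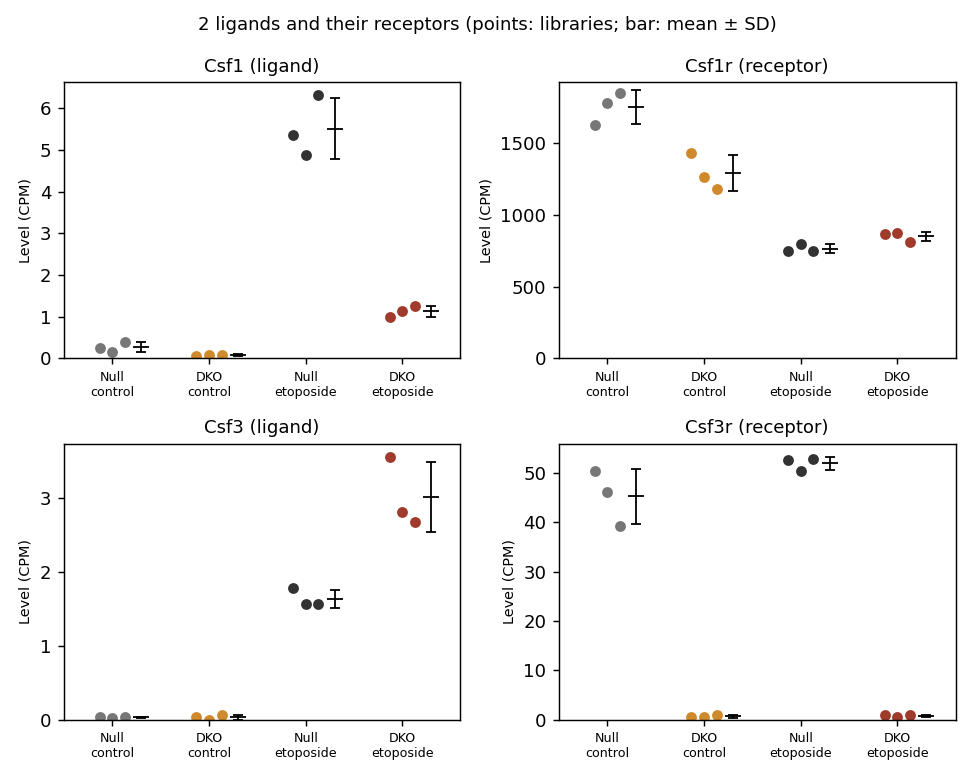
Levels in CPM (vertical axes from 0) of the ligand genes Csf1 and Csf3 on the left and of their receptor genes Csf1r and Csf3r on the right, with 1 point per library and the mean ± SD of 3 libraries. After etoposide Csf1 reached 5.52 CPM in Null cells against 1.13 CPM in DKO cells, and Csf3 reached 1.64 and 3.02 CPM.

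Of 7 other receptor genes of early myeloid growth, 2 passed the filter. Tnfrsf11a encodes RANK, the receptor through which RANKL drives osteoclast formation. It averaged 84.9 CPM in the Null controls and 179 CPM in the DKO controls, and 53.4 and 123 CPM after etoposide. It was thus higher in DKO cells by 1.07 in control cells (adjusted p = 1.17e-05) and 1.19 after etoposide (adjusted p = 2.57e-06), and it fell with etoposide in both lines. Epor, the erythropoietin receptor, averaged at most 0.285 CPM in any group.

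Of 24 tested genes that carry or restrain signals of these receptors, 5 rose and 10 fell with etoposide in Null cells, and 7 rose and 7 fell in DKO cells. The shares over all genes were 20.9% and 18.7% in Null and 20.2% and 19.1% in DKO cells. The medians of the list were -0.13 and 0.10, against 0.03 over all genes in each line. Inpp5d (SHIP1) and Ptpn6 (SHP-1), phosphatases that restrain myeloid receptor signals, fell in Null cells by -1.09 (adjusted p = 1.37e-07) and -1.08 (adjusted p = 6.94e-07). In DKO cells they fell by -0.58 (adjusted p = 2.90e-05) and -0.41 (adjusted p = 0.00167). Between the lines after etoposide 16 of the 24 were higher in DKO cells and 3 lower, where 15.9% and 17.8% of all genes were called, with a median of 0.39 against -0.01 over all genes. In control cells 4 were higher and 5 lower, against 10.9% and 8.39% of all genes.

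Among feedback inhibitors of cytokine signalling, Socs3 responded more strongly in DKO cells. Socs3, which restrains G-CSF receptor and gp130 signals, averaged 19.2 CPM in the Null controls and 15.1 CPM in the DKO controls. After etoposide it averaged 52.9 ± 0.807 CPM in Null cells, against 167 ± 18.2 CPM in DKO cells, and its interaction was 2.01 (adjusted p = 1.22e-06). Socs1 was at 3 to 16 counts in control libraries. After etoposide it averaged 2.16 CPM in Null against 0.438 CPM in DKO cells. Cish, a target of STAT5, held 65 counts over the Null etoposide libraries and 4 over the DKO etoposide libraries, with 1 and 0 counts over the control groups. Cish passed the filter only through the Null etoposide libraries and is given by its counts alone. It is 1 of the 3 signalling genes counted as lower in DKO cells after etoposide and 1 of the 5 counted as rising in Null cells. Socs1, which passed through the etoposide libraries, is another of those 5 and 1 of the 7 counted as rising in DKO cells.

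In the C/EBP family beyond Cebpa and Cebpb, all 5 tested genes were called with etoposide in both lines, 3 higher and 2 lower, where 20.9% and 18.7% of all genes tested were called in Null cells and 20.2% and 19.1% in DKO cells. The list medians were 0.25 and 0.32. Cebpe, a factor of late granulocyte maturation, rose by 2.42 in Null (adjusted p = 2.31e-07) and 2.53 in DKO cells (adjusted p = 1.09e-07), from 1.47 to 8.07 CPM and from 0.531 to 3.32 CPM. It was lower in DKO cells by -1.38 in control cells (adjusted p = 4.96e-05) and -1.27 after etoposide (adjusted p = 6.22e-05), opposite in direction to Cebpa. Cebpg and Ddit3, stress-linked members that pair with other C/EBP factors, fell in both lines.

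Among 7 tested ETS genes other than Spi1, 1 rose and 3 fell in Null cells and 1 rose and 4 fell in DKO cells, with medians of -0.27 and -0.44. Of all genes tested 20.9% rose and 18.7% fell in Null cells and 20.2% and 19.1% in DKO cells. Fli1 fell by -1.59 in Null (adjusted p = 1.53e-07) and by -0.73 in DKO cells (adjusted p = 1.07e-04), and the interaction was 0.87 (adjusted p = 0.00192). Ets2 was lower in DKO cells by -1.10 in control cells (adjusted p = 1.07e-07). The PU.1 relative Spib averaged at most 0.333 CPM in any group.

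Of 8 other interferon regulatory factors, 4 rose in Null and 3 in DKO cells with etoposide, with list medians of 0.35 and 0.28. Over all genes tested 20.9% and 20.2% were called higher. Between the lines 1 was higher and 3 lower in DKO control cells, and 2 were higher and 4 lower after etoposide, against 10.9% and 8.39%, then 15.9% and 17.8%, of all genes. Irf5, a factor of inflammatory macrophage genes, was higher in DKO cells by 0.36 in control cells (adjusted p = 0.00345) and 0.49 after etoposide (adjusted p = 2.14e-04), and Irf2 by 0.69 after etoposide (adjusted p = 0.0230). Irf4, the closest relative of Irf8, averaged 4.48 CPM in the Null controls and 1.38 CPM in the DKO controls, and 8.07 and 1.71 CPM after etoposide. It was lower in DKO cells by -1.67 (adjusted p = 2.80e-06) and -2.21 (adjusted p = 1.32e-07), as was Irf7, a factor of interferon induction, by -1.38 (adjusted p = 2.07e-05) and -1.18 (adjusted p = 5.24e-05).

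Of 31 other myeloid transcription factor genes tested, 12 were higher and 6 lower in DKO control cells, and 14 were higher and 9 lower after etoposide. Of all genes tested 10.9% and 8.39% were called higher and lower in control cells and 15.9% and 17.8% after etoposide. The list medians were 0.25 and 0.21, against 0.00 and -0.01 over all genes. The lower counts in both states include Runx3, Bhlhe41 and Gfi1, the last named after its values were seen. These 3 genes were near 0 in DKO cells and passed the filter only through the Null libraries, as Gata2 did among the lower calls after etoposide, so they are given by their levels alone and the lower counts rest partly on them. Runx3 held 332 to 417 counts in Null control libraries and 1 to 3 in DKO control libraries. Bhlhe41 held 538 to 691 counts and 1 to 4. Gfi1, a repressor of granulocyte development, averaged 1.82 CPM in the Null controls and 0.0598 CPM in the DKO controls, and 1.32 and 0.123 CPM after etoposide. Myc had the reverse pattern, with 0.174 CPM in the Null controls and 9.77 CPM in the DKO controls (log2 difference 5.45, adjusted p = 1.47e-08). The immediate early gene Egr1 went from 27.0 to 116 CPM with etoposide in Null cells but in DKO cells from 25.9 to 9.58 CPM (interaction -3.55, adjusted p = 2.42e-06).

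Of 17 tested macrophage genes with control by PU.1 or C/EBP factors as general background, 3 were higher and 7 lower in DKO control cells, against 10.9% and 8.39% of all genes, with a list median of -0.12 against 0.00 over all genes. After etoposide 5 were higher and 4 lower, against 15.9% and 17.8%, with a median of 0.09 against -0.01. Mpeg1 (perforin-2) averaged 126 CPM in the Null controls and 8.70 CPM in the DKO controls (-3.84, adjusted p = 1.26e-10). Cybb, the catalytic subunit of the phagocyte NADPH oxidase, averaged 1231 and 143 CPM (-3.12, adjusted p = 1.60e-08). Spi1 itself was higher in those DKO libraries. Fcgr1, the high-affinity IgG receptor, fell with etoposide by -0.91 in Null and -2.49 in DKO cells (interaction -1.59, adjusted p = 1.00e-06). Cd14 and Clec4e rose more in DKO cells, with interactions of 1.29 (adjusted p = 0.0253) and 0.70 (adjusted p = 0.00353). Of 15 granule and neutrophil genes 3 passed the filter (Itgam, Lcn2 and Mmp9), of which Itgam, the most abundant, averaged 224 CPM in the Null controls and 143 CPM in the DKO controls.

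The genes most like each of the 9 were found by Pearson's r of log2 CPM over the 12 libraries, which fall into 4 groups, so that r describes mainly the group means. Syk, a kinase of immune receptor signalling, was closest to Csf3r (r = 0.995) at 87.5 CPM in the Null controls and 9.51 CPM in the DKO controls. Pxdn came next. It passed the filter only through the Null libraries and is given by its counts alone. Pxdn held 1196 counts over the Null control libraries and 0 over the DKO control libraries. Csf1r was closest to Acaca (r = 0.998) and Inpp5d (r = 0.993). Irf8 was closest to the histone genes Hist2h3b and Hist1h1e (both r = 0.996), the latter at 345, 220, 81.8 and 14.5 CPM in Null control, DKO control, Null etoposide and DKO etoposide cells. Csf2ra was closest to Cd68 (r = 0.992) and Plscr3 (r = 0.988), Spi1 to Zbtb32 (r = 0.995) and A230050P20Rik (r = 0.990), and Cebpa to Dock6 (r = 0.992) and Fosl2 (r = 0.991). Csf2rb was closest to Tmem132a (r = 0.986) and Nod2 (r = 0.984), Csf2rb2 to Zfp608 (r = 0.986) and Naip6 (r = 0.985), and Cebpb to Tmem198b (r = 0.969) and Zswim8 (r = 0.966).

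Within the 9 genes, Csf2rb and Csf2rb2 ran together over the 12 libraries (r = 0.971), as did Cebpa and Cebpb (r = 0.905). Irf8 ran against Cebpb (r = -0.942) and Cebpa (r = -0.916), and Csf3r ran against Spi1 (r = -0.943). Csf1r ran against Cebpa (r = -0.926). Between Csf1r and Spi1 r was -0.05, which does not show that these genes are unrelated. These are descriptions over libraries that share depth, line and treatment.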

How the data were processed

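Per the labels, the authors aligned reads to mm10 with HISAT2 and counted them with featureCounts, whereas the study's methods name HTSeq on GENCODE and uniquely mapped pairs. They deposited raw counts per gene for 12 libraries (Illumina stranded total RNA, ribosomal RNA depleted). The strand setting of the counting and the tool versions are not given in the sources used here. The labels name 2 RNA extraction kits without tying them to libraries. Coordinates and lengths came from GENCODE M21 by gene identifier without version.

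Genes were filtered with filterByExpr (18066 kept, 99.96% of counts). Libraries were scaled by TMM (factors 0.939 to 1.03), and log2 CPM with a prior count of 3 was fitted with limma-trend (limma 3.58.1, edgeR 4.0.16, R 4.3.3, robust moderation), all 12 libraries in 1 model with a mean per group. The 2-sided p-values of 5 contrasts were adjusted by Benjamini-Hochberg over all genes tested and called at 0.05. A check of the procedure on simulated data used the same setting of spread for every gene and required recovery only of large changes. It does not bear on calls near the threshold. Alternatives were other scalings, filters and prior count, edgeR quasi-likelihood, DESeq2 1.42.0, the replicate block, the compared groups alone, a minimum log2 difference of 1 and leaving out each library.

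The named genes were the 9 genes, the 2 largest called rises and falls of each pathway list and the 2 most alike genes of each of the 9, and some of these are given as values only. The 9 genes and the lists, written from general knowledge, were chosen with earlier results of these data known. Replicates differed by 3.40 to 53.6 times counting noise, so none was counted as the same library deposited again. This does not show separate cultures.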

Additional observations from a re-analysis of the deposited data

Results flagged for a closer look

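For 3 of the 9 genes the etoposide response differed between the lines by the test of the interaction in limma (DKO response minus Null response, log2 scale). Csf1r fell by 1.19 in Null and by 0.60 in DKO cells, a difference of 0.59 (adjusted p = 0.00800). Spi1 moved by -0.24 in Null and 0.21 in DKO cells, a difference of 0.45 (adjusted p = 0.0221), which lost its call when any of 4 single libraries was left out. Irf8 fell by 0.87 in Null and by 1.52 in DKO cells, a difference of -0.65 (adjusted p = 0.00158).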

How the results depend on the processing

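Direction and call were kept in 931 of the values recomputed for the 9 genes, 40 lost the call, 7 gained it and 13 changed sign. All 13 changes of sign were in interactions that had no call, when a library was left out: Csf2ra from -0.20 to 0.27, Csf2rb2 from -0.12 to 0.26 and Csf3r from -0.094 to 0.32. Counts of the 9 genes called moved by over 1.5 times only with a minimum absolute log2 difference of 1, to 3 and 4 for the etoposide response in Null and DKO cells, 2 and 4 for DKO against Null in control and etoposide-treated cells and 0 for the interaction, from 7, 7, 7, 7 and 3. Other settings with all libraries moved them by at most 1 gene. With a library left out they ranged from 6 to 7, 6 to 7, 7 to 9, 7 to 8 and 2 to 4. Over all genes that minimum left 2381, 2370, 1365, 2167 and 816 calls of 7148, 7108, 3490, 6079 and 1708, and fitting only the compared groups left 2031 calls between the lines in control cells. Deviations of same-numbered libraries from their group means gave 18 correlations, from -0.542 to 0.394. With 3 libraries per group these cannot exclude a pairing by number, and the main fit used none. With the replicate block 7, 6, 7, 7 and 3 of the 9 genes were called, and Spi1 in DKO cells lost its call (0.21, adjusted p = 0.0706). Other scalings moved the median of all genes by at most 0.081. Depth limited Csf2rb2, with 20 to 79 counts in control libraries, and Csf3r, with 29 to 61 counts in DKO libraries.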
